A study of Vitis vinifera with 27 samples.

Results

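Buds of node 10 were compared with buds of node 2 at BBCH63 (anthesis, when the vine is in flower), to find the genes that differed between distal and basal positions of the shoot. The comparison rested on 5 of the 27 RNA-Seq libraries of the series, namely replicates 1 and 2 of node 10 and replicates 1 to 3 of node 2. All libraries came from latent buds of *Vitis vinifera* cv. Merlot grafted onto Kober 5BB, in 1 vineyard and 1 season. The series holds nodes 2, 5 and 10 at BBCH63, BBCH77 (cluster closure) and BBCH90 (harvest), with 3 biological replicates in each of the 9 groups, and each replicate was a separate pool of whole buds of the same node. Pooled whole buds mix many tissues, so fewer cells of a type and less RNA per cell cannot be told apart. Replicate 3 of node 10 at each stage was left out by the study for the identification of differentially expressed genes (DEGs), and it was left out here in the same way unless stated. Of the 35134 genes in the table, 22999 had enough counts to be tested. A DEG was a gene with an adjusted p under 0.05 (edgeR quasi-likelihood test, Benjamini-Hochberg adjustment over all genes tested) and at least a 2-fold change, and 1060 genes met both limits.

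Latent buds form in the leaf axils of the growing shoot and pass the winter before they open. Around flowering of the current crop, the meristems inside them form uncommitted primordia, which can become inflorescences of the next season or tendrils. Buds at basal nodes are formed before those at distal nodes of the same shoot, and in many cultivars the distal buds bear more inflorescences. In *Arabidopsis*, the floral transition runs through photoperiod genes such as *CONSTANS* (*CO*), the integrator *SOC1*, the repressor *FLC* and the meristem identity genes *LEAFY* and *TFL1*, and the grapevine genes named after them are described below.

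The total counts of the 5 libraries were between 39427753 and 44607840, so that 3 counts in a library were worth 0.0673 to 0.0761 CPM (counts per 1000000 counts of the library, after TMM normalization for differences in composition between libraries). The meristem genes *VvVFL*, the grapevine *LEAFY* homolog, and *VvTFL1A*, a *TFL1* homolog, were detected in all 5 libraries. Several libraries of the series stood apart from their labels. Replicate 2 of node 2 at BBCH63 and replicate 3 of node 10 at BBCH90 held the same count for each of the 35134 genes. Across the 27 libraries, this column had r = 0.90 with the mean of the other BBCH63 node 2 libraries (3000 most variable genes). With the mean of the other BBCH90 node 10 libraries it had r = -0.73, so its counts resembled those of node 2 at BBCH63. How the column came to stand under both labels was not tested. At BBCH63, replicates 1 and 2 of node 10 correlated with each other at r = 0.75 over the 3000 most variable genes, centred on the mean of the 9 libraries of the stage. Replicate 3 of node 10 had r of -0.46 and -0.56 with them, and over all 27 libraries its highest correlation with a group mean was with node 2 at BBCH77 (r = 0.50). Replicate 3 of node 5 had r of 0.68 and 0.60 with replicates 1 and 2 of node 10, against 0.32 and 0.38 with the other libraries of its own group. These correlations are descriptions across genes, which share their libraries and are not independent.

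**Figure D1:**
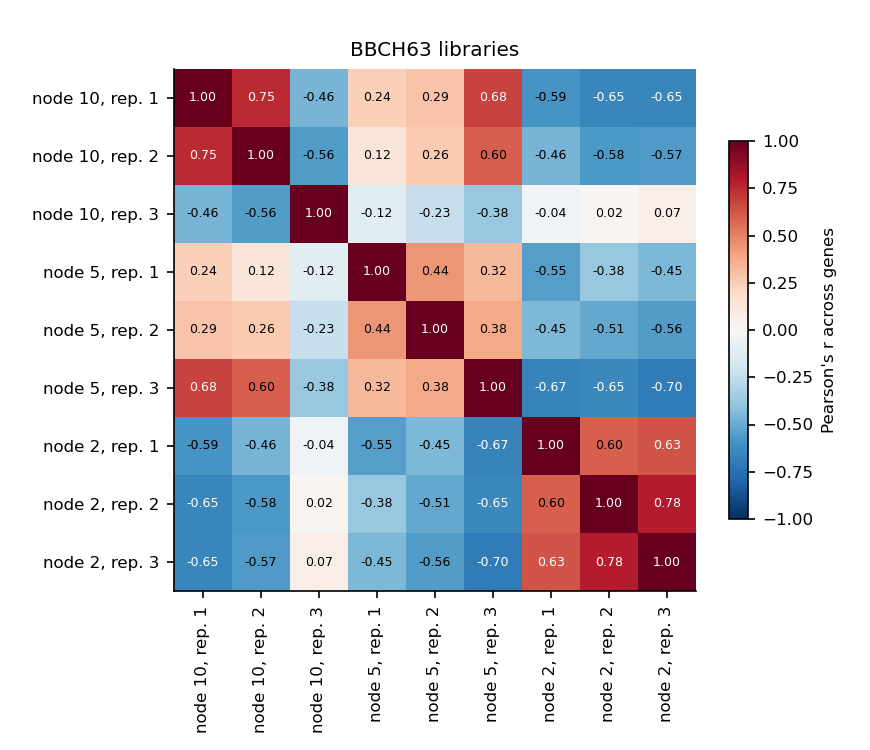
Pearson's r between the 9 BBCH63 libraries across the 3000 most variable genes, as a colour scale and printed in each cell, with node 10 first, then node 5 and node 2 (rep., replicate). The 3 node 2 libraries correlate positively with each other (0.60 to 0.78), and node 5 replicate 3 correlates more with node 10 replicates 1 and 2 than with node 5 replicates 1 and 2.

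For this reason the comparison was repeated with each column from node 5 replicate 1 of BBCH63 on given the label of the next column. Node 10 then held the columns labelled node 5 replicate 3, node 10 replicate 1 and node 10 replicate 2, and node 2 was unchanged, so that the libraries of the first comparison kept their group and 1 library was added to node 10. This fit also took in node 10 replicate 3 of BBCH63 and of BBCH77, as node 2 of BBCH77 and of BBCH90. Its common dispersion was 0.0440, against 0.0483 in the fit of 24 libraries. Its counts of DEGs therefore come from other libraries as well as from other labels. Results with the labels moved are given beside the others, and whether the deposited labels or the moved ones are right was not tested.

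In the fit of 24 libraries, node 10 buds differed from node 2 buds more often by lower than by higher expression. Of the 22999 genes tested, 373 (1.62%) were DEGs with higher expression at node 10 and 687 (2.99%) with lower expression, together 4.61%, while the median log2 fold change of all genes was 0.01. At an adjusted p under 0.05 without a limit on the fold change the directions were nearly even, with 1092 genes higher and 1055 lower at node 10. The excess of lower DEGs therefore lay in the larger changes. It depended on the libraries used. It was absent in fits with 1 node 10 library, and with node 10 replicate 3 added there were 230 higher and 242 lower DEGs. The DEGs with higher expression had a median log2 fold change of 1.37, and 58 of them reached 4-fold and 6 reached 16-fold. Those with lower expression had a median of -1.99, with 342 at 4-fold or more and 94 at 16-fold or more. In 12 of the higher DEGs no node 2 library had more than 3 counts, and in 38 of the lower DEGs no node 10 library did. With these genes set to the smallest fold change that 3 counts per library allow, the medians were 1.37 and -1.97, and 2 of the higher and 78 of the lower DEGs reached 16-fold.

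**Figure D2:**
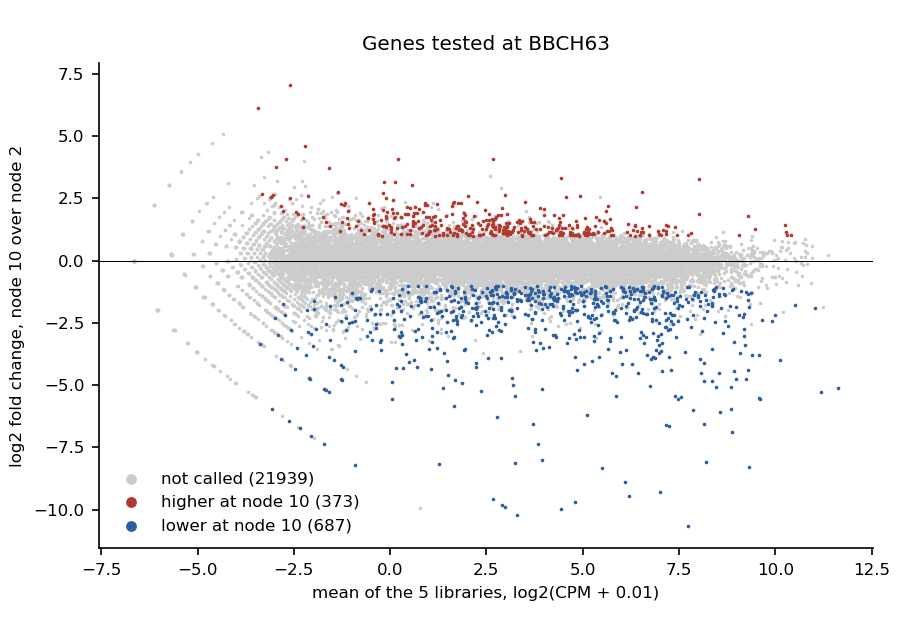
Each point is 1 of the 22999 genes tested, with its mean over the 5 libraries as log2(CPM + 0.01) on the horizontal axis and its fitted log2 fold change, node 10 over node 2, on the vertical axis. The 687 genes lower at node 10 extend to about -10, also among genes of high expression, while most of the 373 higher ones lie under 2.5.

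The lower DEGs covered a wide range of expression in basal buds. Their median level was 6.18 CPM at node 10 and 27.7 CPM at node 2, beside 12.7 and 13 CPM over all genes tested. A mean of at least 100 CPM at node 2 was reached by 208 of them (30.3%, beside 11.1% of all genes), and 58 were under 1 CPM there. The median level of the higher DEGs was 9.42 CPM at node 10 and 3.43 CPM at node 2, and 38 of them had at least 100 CPM at node 10. The libraries of the groups did not overlap in any of the 373 higher DEGs, with the same true of 686 of the 687 lower DEGs, against 52.5% of all genes tested, and the limits used to choose the DEGs favour such genes. Just inside the limits stood a gene with an adjusted p of 0.0499 and one with a log2 fold change of 1.0, and just outside them one with an adjusted p of 0.0501 and one with a log2 fold change of 0.998 (edgeR).

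The DEGs called depended on the few libraries available. Without node 10 replicate 1, the count was 67 higher and 40 lower, and without replicate 2 it was 121 and 64, where the single library left was assumed to vary like the other groups. Without node 2 replicate 1, 215 were higher and 407 lower, and without node 2 replicate 2, the library whose counts also stand under another label, 266 were higher and 574 lower. Node 2 replicate 1 was the highest of its group in 401 of the 687 lower DEGs, and its median log2 ratio to the mean of the other node 2 libraries was 0.24 over these genes. Adding node 10 replicate 3 to the fit gave 230 higher and 242 lower, and all 27 libraries gave 1 and 3, with 2741 genes at an unadjusted p under 0.05. The fit of 27 libraries also holds replicate 3 of node 10 at BBCH77 and at BBCH90. Their correlations with the rest of their groups were -0.65 and -0.73, and the first had r = 0.87 with node 2 at BBCH90. Such libraries enter the dispersion of that fit, so its counts do not describe the libraries of BBCH63 alone. With the labels moved, 543 genes (2.36% of 23040 tested) were higher and 1026 (4.45%) lower at node 10. They included 319 of the 373 and 609 of the 687 DEGs, and none of the 1060 had the opposite sign. All libraries that chose the DEGs are in this fit too. The library added to node 10 was one that correlated with node 10 replicates 1 and 2. The shared calls and signs are thus no separate evidence.

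**Figure D3:**
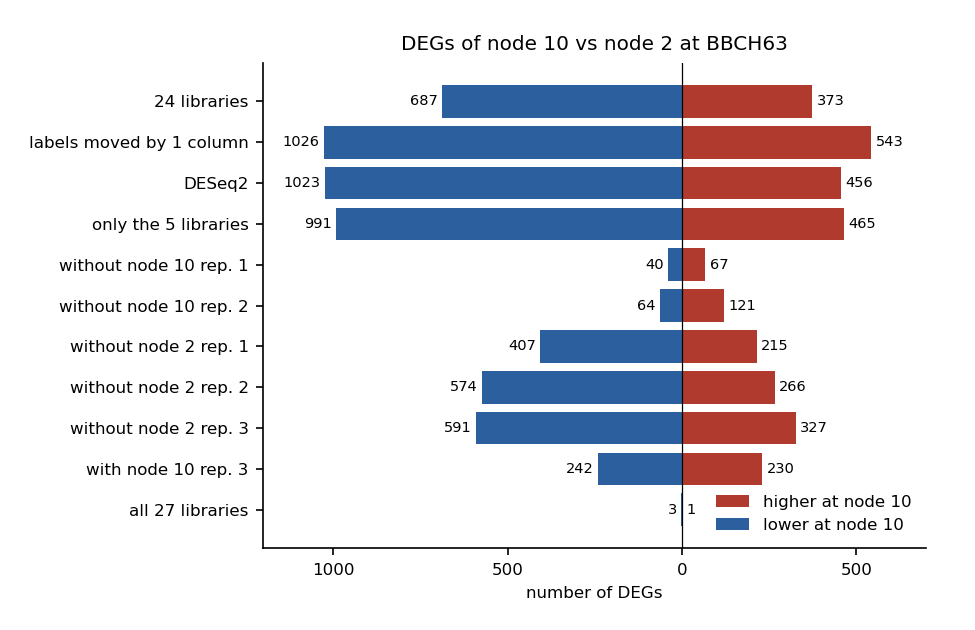
Number of DEGs higher (right bars) and lower (left bars) at node 10 than at node 2 at BBCH63 in the fit of 24 libraries and in 10 other fits, with edgeR except where DESeq2 is named (rep., replicate). The counts are 373 and 687 with 24 libraries, 543 and 1026 with the labels moved, and 1 and 3 with all 27 libraries.

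Among the 7 flowering genes of the study, none was a DEG in the fit of 24 libraries. *VvCO* and *VvSOC1* were higher in node 10 buds by less than 2-fold. *VvCO*, named after the *Arabidopsis* photoperiod gene, had 59.8 and 55.5 CPM in node 10 libraries, against 23.7, 30.7 and 34.4 CPM in node 2 libraries. Every node 10 library was above every node 2 library, and the log2 fold change was 0.96 ± 0.22 (SE, adjusted p = 0.0121, edgeR). *VvSOC1*, a homolog of the *Arabidopsis* floral integrator, had 113 and 98 CPM in node 10 libraries, against 63.4, 73.2 and 82.6 CPM in node 2 libraries. Again the groups did not overlap, with a log2 fold change of 0.53 ± 0.15 (SE, adjusted p = 0.0384, edgeR). These values were 0.86 (adjusted p = 0.00741) and 0.56 (adjusted p = 0.0113) with the labels moved. Without node 10 replicate 1 the adjusted p was 0.112 for *VvCO* and 0.284 for *VvSOC1* (edgeR), without node 10 replicate 2 it was 0.0749 and 0.11, without node 2 replicate 1 it was 0.0551 and 0.147, and with node 10 replicate 3 added it was 0.0617 and 0.223. *VvSOC1* also did not pass without node 2 replicate 2 (adjusted p = 0.0805, edgeR). Over the 14 alternative settings the log2 fold change of *VvCO* ranged from 0.74 to 1.08, and *VvCO* was a DEG in 2 of them.

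The other flowering genes did not pass the test. *VvELF4*, named after a clock gene of *Arabidopsis*, had 38.3 and 34.0 CPM at node 10 and 27.2, 21.1 and 26.2 CPM at node 2 (log2 fold change 0.54 ± 0.20 SE, adjusted p = 0.096, edgeR), and with the labels moved the adjusted p was 0.00832. *VvFLC* and *VvCOL1* had log2 fold changes of 0.29 ± 0.15 and 0.29 ± 0.15 (SE), with adjusted p of 0.245 and 0.222 (edgeR). *VvVFL* had 4.41 and 5.94 CPM in node 10 libraries, against 4.65, 4.85 and 5.47 CPM in node 2 libraries. Its libraries overlapped, and the log2 fold change of 0.05 ± 0.23 (SE) had a 95% interval of about -0.40 to 0.51. With node 10 replicate 3 added it was 0.63 (adjusted p = 0.208, edgeR), outside that interval. *VvTFL1A*, whose *Arabidopsis* counterpart keeps meristems vegetative, had 6.34 and 6.20 CPM at node 10 and 5.00, 7.82 and 10.4 CPM at node 2, a log2 fold change of -0.30 ± 0.46 (SE), and its libraries overlapped as well. The median of the 7 genes was 0.29, beside 0.01 over all genes.

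Of the 3 genes annotated as dormancy-associated proteins, a family whose transcripts are known to accumulate in buds that do not grow, 2 were DEGs higher in node 10 buds, where 1.62% of all genes were. Dormancy-associated protein-like 3 (*Vitvi14g00142*) had 745 and 794 CPM in node 10 libraries, against 358, 389 and 377 CPM in node 2 libraries, with a log2 fold change of 1.04 ± 0.20 (SE, adjusted p = 0.0061, edgeR). Dormancy-associated protein-like 4 (*Vitvi09g00050*) had 167 and 120 CPM in node 10 libraries, against 48.8, 67.1 and 58.2 CPM in node 2 libraries, with a log2 fold change of 1.31 ± 0.34 (SE, adjusted p = 0.0243, edgeR). In both genes all node 10 libraries were above all node 2 libraries. Dormancy-associated protein-like 1 (*Vitvi10g00485*) was the most expressed of the 3, with 1553 and 1287 CPM at node 10 and 854, 992 and 1034 CPM at node 2, but did not pass the test (log2 fold change 0.56 ± 0.25 SE, adjusted p = 0.16, edgeR). With the labels moved, dormancy-associated protein-like 3 fell under the 2-fold limit, at a log2 fold change of 0.94, and dormancy-associated protein-like 4 was a DEG at 1.18. The calls rested on few libraries. Without node 10 replicate 1 neither gene passed (adjusted p = 0.0639 for protein-like 3 and 0.218 for protein-like 4, edgeR), nor without node 10 replicate 2 (0.064 and 0.0791) or with all 27 libraries (0.331 and 0.174). Protein-like 4 was also lost without node 2 replicate 1 (adjusted p = 0.0928, edgeR) or replicate 3 (0.0563).

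*ERF020* and the *ALP1-like* gene were low in both node 10 libraries and did not pass the test with the deposited labels. *ERF020* (*Vitvi18g02191*) encodes an ethylene-responsive transcription factor, and the *ALP1-like* gene (*Vitvi11g00140*) a protein similar to *Arabidopsis* ALP1, which derives from a transposase. The study measured both also by qPCR at BBCH63, and its primers are shown here in lower case, 5′ to 3′, since they give the stretches by which these transcripts can be followed. They are 24 or 25 bases long.
ALP1-like forward: aagtgggctttggataatcagaacg
ALP1-like reverse: ctctcactctcctccatttcacca
ERF020 forward: tttccgttcccagataacacactg
ERF020 reverse: atcacctccagtaaagcctaccatc

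*ERF020* had 1.34 and 1.33 CPM in node 10 libraries, against 33.7, 7.54 and 8.06 CPM in node 2 libraries. The groups did not overlap, but node 2 replicate 1 stood far above the other node 2 libraries. The log2 fold change was -3.62 ± 1.24 (SE, adjusted p = 0.0727, edgeR), and without node 2 replicate 1 it was -2.55 (adjusted p = 0.244). *ALP1-like* had 47.8 and 58.5 CPM in node 10 libraries, against 562, 326 and 330 CPM in node 2 libraries. Here too the groups did not overlap and replicate 1 was the highest of node 2, and the log2 fold change was -2.93 ± 1.19 (SE, adjusted p = 0.125, edgeR). Both genes were DEGs with the labels moved, *ERF020* at -3.75 (adjusted p = 0.0298) and *ALP1-like* at -3.06 (adjusted p = 0.0234). DESeq2 also called both with the deposited labels, with adjusted p of 0.0128 and 0.0287.

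**Figure D4:**
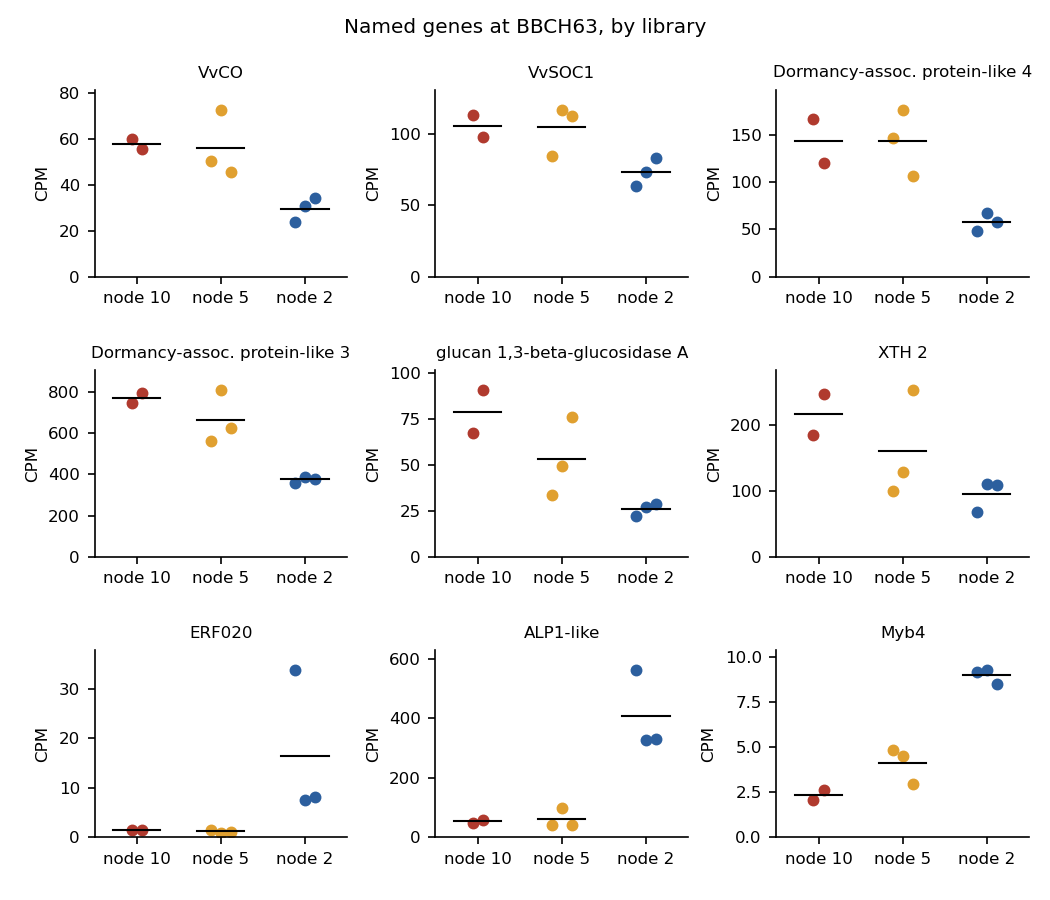
Expression in CPM of 9 genes at BBCH63, 1 point per library and a line at the group mean, with node 10 (replicates 1 and 2), node 5 and node 2 (3 replicates each) from left to right and each vertical axis starting at 0 (XTH 2, xyloglucan endotransglucosylase/hydrolase 2). The node 10 points of all 9 genes lie apart from the node 2 points, and node 2 replicate 1 is far above the other libraries for ERF020 and ALP1-like. Node 10 and node 2 libraries did not overlap in 52.5% of all genes tested.

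The study lists groups of genes that it chose on these same samples, so that their direction is not independent evidence. Group A is made of genes listed there as lower in buds of the intermediate position than in basal buds at every stage, *ERF020* among them. All 6 of its genes had negative log2 fold changes in node 10 vs node 2 (median -1.44, range -3.62 to -0.80), and none was a DEG. Endochitinase EP3, an enzyme that cleaves chitin, had 87.7 and 119 CPM in node 10 libraries, against 691, 228 and 258 CPM in node 2 libraries (log2 fold change -1.92 ± 0.86 SE, adjusted p = 0.165, edgeR). Wound-induced protein 1 had 247 and 240 CPM in node 10 libraries, against 642, 354 and 382 CPM in node 2 libraries (-0.92 ± 0.47 SE, adjusted p = 0.223, edgeR). In both genes node 2 replicate 1 was again the highest, and the groups did not overlap.

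Group C is made of genes listed as decreasing from each stage to the next at every node. Of its 138 genes, 11 were DEGs higher at node 10 and none lower. The higher share was 7.97%, beside 1.62% of all genes tested, and 126 of the 138 had positive log2 fold changes, with a median of 0.54 beside 0.01. With the labels moved 16 were higher and none lower, and 8 of the 11 kept their call. None of the 11 was a DEG without node 10 replicate 1 (adjusted p 0.0596 to 0.265, edgeR), without replicate 2 (0.0534 to 0.246), with node 10 replicate 3 added (0.118 to 0.449) or with all 27 libraries (0.58 to 0.891). Without node 2 replicate 1, 2 or 3, the call held for 4, 6 and 9 of them. A probable glucan 1,3-beta-glucosidase A, a hydrolase of cell wall glucans, had 67.2 and 90.6 CPM in node 10 libraries, against 22, 27.3 and 28.5 CPM in node 2 libraries (log2 fold change 1.60 ± 0.35 SE, adjusted p = 0.00933, edgeR). Xyloglucan endotransglucosylase/hydrolase 2, which cuts and rejoins xyloglucan chains in growing walls, had 184 and 247 CPM in node 10 libraries, against 68.3, 110 and 108 CPM in node 2 libraries (1.17 ± 0.33 SE, adjusted p = 0.0323, edgeR). Every node 10 library was above every node 2 library in both. The other 3 genes picked by words for the cell wall in their product names encode arabinogalactan proteins. They were at 0.22 to 0.31 and did not pass the test.

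Of the other DEGs of group C, allene oxide synthase 3-like, of the enzyme family that makes jasmonate precursors, had 1.01 and 1.65 CPM in node 10 libraries, against 0.32, 0.33 and 0.28 CPM in node 2 libraries (log2 fold change 2.08 ± 0.46 SE, adjusted p = 0.0145, edgeR). Allene oxide synthase 3, also in group C, had means of 3.42 CPM at node 10 and 2.69 CPM at node 2. It did not pass the test (log2 fold change 0.35 ± 0.36 SE, adjusted p = 0.582, edgeR). Ornithine decarboxylase, which forms putrescine, had 7.79 and 11 CPM in node 10 libraries, against 2.07, 4.13 and 2.97 CPM in node 2 libraries (1.61 ± 0.46 SE, adjusted p = 0.0352, edgeR). It was no longer called with the labels moved, at 1.29 (adjusted p = 0.0887). *VvAOMT*, an anthocyanin *O*-methyltransferase, had 30.4 and 33.6 CPM in node 10 libraries, against 13, 15.5 and 18.1 CPM in node 2 libraries (1.04 ± 0.29 SE, adjusted p = 0.0303, edgeR). With the labels moved its log2 fold change of 0.97 was under the 2-fold limit. The remaining 6 were a tropinone reductase homolog, which is a short-chain dehydrogenase, the auxin-binding protein ABP19a, a senescence-induced receptor-like kinase, SODIUM POTASSIUM ROOT DEFECTIVE 1, whose *Arabidopsis* counterpart acts in the phloem, the RING-H2 finger protein ATL22-like and an uncharacterized protein. Their log2 fold changes were 1.15, 1.34, 1.26, 1.07, 1.02 and 1.27. The libraries of node 10 and node 2 did not overlap in any of them, as in all 373 higher DEGs. Words in the product names picked 8 genes for phenylpropanoids and flavonoids (median 0.63) and 16 for cuticle and wax (median 0.49). None of them was a DEG. The 8 did not include *VvAOMT*, so these lists are not complete. All 8 and 15 of the 16 were positive, but the 24 genes all belong to group C, and 51.1% of all genes tested were positive.

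Group D is made of genes listed as increasing from each stage to the next at every node. Of its 32 genes, 1 was a DEG higher and 2 were lower at node 10 (3.12% and 6.25%, beside 1.62% and 2.99% of all genes, median 0.05). Chaperone protein dnaJ C76, a chloroplast co-chaperone, had 3.20 and 2.05 CPM in node 10 libraries, against 0.67, 0.54 and 0.58 CPM in node 2 libraries (log2 fold change 2.13 ± 0.44 SE, adjusted p = 0.00713, edgeR). Myb4, whose *Arabidopsis* counterpart represses phenylpropanoid genes, had 2.04 and 2.63 CPM in node 10 libraries, against 9.16, 9.26 and 8.49 CPM in node 2 libraries (-1.94 ± 0.55 SE, adjusted p = 0.0352, edgeR). TIFY 10A, of the family that represses jasmonate responses in *Arabidopsis*, had 0.20 and 0.04 CPM in node 10 libraries, against 1.77, 0.67 and 0.56 CPM in node 2 libraries (-3.03 ± 0.71 SE, adjusted p = 0.014, edgeR). All 3 remained DEGs with the labels moved, but none was a DEG without node 10 replicate 1 (adjusted p 0.0732 to 0.244, edgeR) or with all 27 libraries (0.284 to 0.89), and the log2 fold change of TIFY 10A was 0.97 when node 10 replicate 3 was added. IAA9, of the repressor family of auxin responses, had 0.55 and 0.49 CPM in node 10 libraries and 0.67, 0.46 and 0.33 CPM in node 2 libraries, which overlapped (0.10 ± 0.31 SE). *UBC28*, a reference gene of the qPCR, had a log2 fold change of 0.21 ± 0.16 (SE, adjusted p = 0.439, edgeR).

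The largest changes lay in genes for which no product name was used here. *Vitvi05g04535* had the largest rise among the DEGs with at least 10 CPM in the higher group and no overlap, with 11 and 18 CPM in node 10 libraries, against 0.24, 1.51 and 0.81 CPM in node 2 libraries (log2 fold change 4.07 ± 0.77 SE, adjusted p = 0.00633, edgeR). *Vitvi08g00195* followed, with 45.7 and 48.6 CPM in node 10 libraries, against 4.30, 4.56 and 5.16 CPM in node 2 libraries (3.33 ± 0.47 SE, adjusted p = 0.000856, edgeR). Node 10 replicate 3, left out of the fit, had 0.24 CPM of the first gene and 8.28 CPM of the second (scaled over all 27 libraries), and node 5 replicate 3 had 14.2 and 41.8 CPM, near the levels of node 10 replicates 1 and 2. The 10 genes with the largest rise by the same rule had means of 14.5 to 563 CPM at node 10 and 0.86 to 57.4 CPM at node 2.

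The largest falls were in genes near the lowest level detectable at node 10. *Vitvi04g04502* had 0.24 and 0.19 CPM in node 10 libraries (11 and 9 counts), against 462, 269 and 330 CPM in node 2 libraries (17189, 10509 and 13001 counts), and its mean at node 2 was 1630 times that of node 10 (95% exact Poisson interval of the node 10 counts 1060 to 2670, counting error only, edgeR adjusted p = 0.00633). *Vitvi12g02345* had 1 and 0 counts in node 10 libraries, against 748, 642 and 499 counts in node 2 libraries, a ratio of 1520 of node 2 over node 10 with an interval of 272 to 59900 (edgeR adjusted p = 0.00802). In node 10 replicate 3, *Vitvi04g04502* had 282 CPM and *Vitvi12g02345* had 6.81 CPM. The first level lay within the range of the node 2 libraries, and the second lay between those of node 10 replicates 1 and 2 and the lowest node 2 library (12.7 CPM). The 10 largest falls had means of 0.011 to 0.338 CPM at node 10 and 10.6 to 354 CPM at node 2, and 5 of them had at most 3 counts in each node 10 library. The most expressed lower DEG of all reached a mean of 148 CPM at node 10 and 5144 CPM at node 2. All 10 genes with the largest rise and all 10 with the largest fall remained DEGs with the labels moved, in a fit that holds the libraries that chose them.

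In the order of their identifiers, lower and higher DEGs both stood beside a DEG of the same direction more often than all genes tested. When the genes tested were put in the order of the chromosome and number in their identifiers, 115 of the 687 lower DEGs (16.7%) stood beside another lower DEG, against 5.76% of all genes tested that stood beside one. For the higher DEGs these were 40 of 373 (10.7%) and 3.18%. The longest run held 9 consecutive lower DEGs with identifiers of chromosome 12, with means of 2.24 to 22.5 CPM at node 10 and 60.0 to 757 CPM at node 2. A run of 6 with identifiers of the same chromosome, which includes *Vitvi12g02345*, had 0.011 to 0.338 CPM at node 10 and 16.4 to 212 CPM at node 2. Only genes tested were put in this order, so the identifiers within a run need not be consecutive. No coordinates were used here, so whether the genes of a run are neighbours on the chromosome was not tested. Near-identical copies may be among them, between which the counting may have split reads, so the level of each single member is uncertain.

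In median level, node 5 buds of the same stage lay between node 10 and node 2 in these genes. The genes were chosen for differing between node 10 and node 2, so an intermediate level is no separate finding. Node 5 replicate 3, which correlated more with node 10 replicates 1 and 2 than with its own group, enters the node 5 values. The node 5 contrasts are given with the deposited labels only, and with the labels moved that column belongs to node 10. The median level of the lower DEGs was 6.18 CPM at node 10, 10.8 CPM at node 5 and 27.7 CPM at node 2, and that of the higher DEGs was 9.42, 7.0 and 3.43 CPM in the same order of nodes. Over the lower DEGs the median log2 fold change of node 10 over node 5 was -0.62, and that of node 5 over node 2 was -1.43, and over the higher DEGs it was 0.35 and 1.07. These contrasts share libraries with the one that chose the genes and are given side by side only. Node 10 vs node 5 gave no DEG (0% in either direction, 2479 genes at an unadjusted p under 0.05) in edgeR, and 7 higher and 98 lower in DESeq2. Node 5 vs node 2 gave 391 higher (1.7%) and 718 lower (3.12%), together 4.82%.

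At the later stages the same contrast was measured in other libraries, and fewer genes were DEGs with the deposited labels. At BBCH77, node 10 vs node 2 gave 60 DEGs higher (0.261%) and 307 lower (1.33%), together 1.60%. Of the 687 genes lower at BBCH63, 546 were below 0 at BBCH77, where 47.7% of all genes were, with a median log2 fold change of -0.87 beside 0.02 over all genes, and 174 were DEGs in the same direction. Of the 373 higher ones, 291 were above 0, where 52.3% of all genes were, with a median of 0.46, and 23 were DEGs in the same direction. None was a DEG in the opposite direction. At BBCH90, edgeR gave no DEG (0%, 2185 genes at an unadjusted p under 0.05) and DESeq2 gave 4 higher and 127 lower. There 490 of the lower DEGs kept their sign with a median of -0.28, and 213 of the higher ones with a median of 0.06. The BBCH63 values chose these genes, so their larger size at BBCH63 is no finding. With the labels moved, BBCH77 gave 446 higher (1.94%) and 1061 lower (4.61%), together 6.54%, and BBCH90 gave 18 (0.0781%) and 357 (1.55%), together 1.63%, beside 6.81% in both directions at BBCH63.

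**Figure D5:**
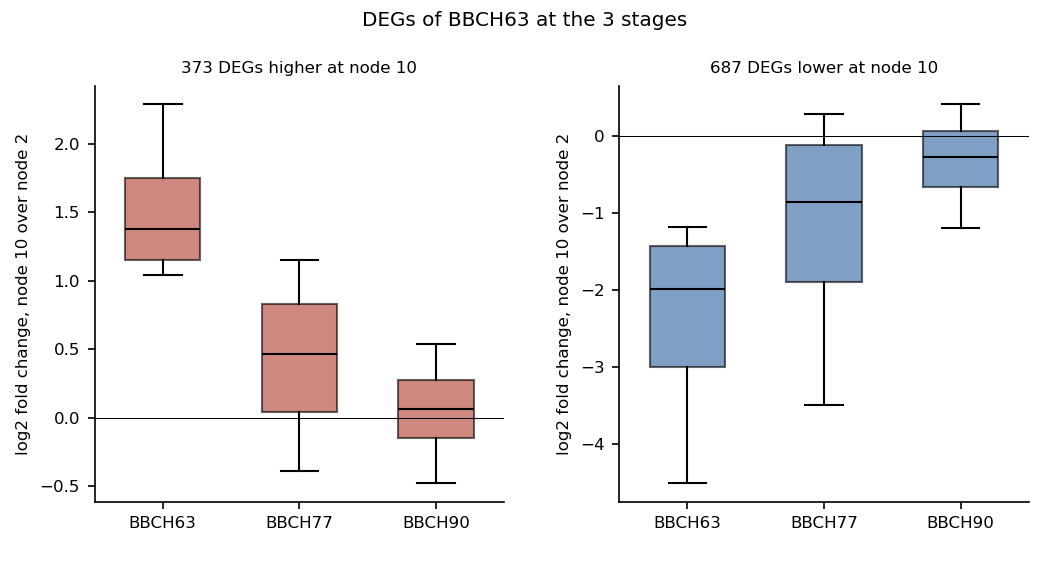
Fitted log2 fold changes, node 10 over node 2, of the 373 higher (left) and 687 lower (right) DEGs of BBCH63 at BBCH63, BBCH77 and BBCH90, with a line at the median, boxes over the middle quartiles and whiskers from the 10th to the 90th percentile. The medians of the lower DEGs are -1.99, -0.87 and -0.28, and those of the higher DEGs are 1.37, 0.46 and 0.06, where the BBCH63 values were used to choose the genes.

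The level at which the lower DEGs were expressed in basal buds also differed between stages. Their median level was 6.18 CPM at node 10 and 27.7 CPM at node 2 at BBCH63, 13.6 and 33.9 CPM at BBCH77, and 4.32 and 5.24 CPM at BBCH90. *Vitvi04g04502* had 0.95 and 0.25 CPM in node 10 libraries (replicates 1 and 2) at BBCH77, against 1050, 548 and 0.61 CPM in node 2 libraries, and at BBCH90 all node 10 and node 2 libraries of the fit were at or under 1.11 CPM (scaled over all 27 libraries). Node 2 replicate 3 at BBCH77 was thus near the node 10 libraries for this gene, and with the labels moved that column belongs to node 5. The difference between node 10 and node 2 differed from that at BBCH63 in 4 genes at BBCH77 (3 higher, 0.013%, and 1 lower, 0.00435%, together 0.0174%) and in 50 genes at BBCH90 (26 higher, 0.113%, and 24 lower, 0.104%, together 0.217%) by the interaction test of edgeR. Of the 50 genes, 19 were among the higher and 26 among the lower DEGs of BBCH63.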

How the data were processed

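For each of 27 libraries the authors deposited whole-number counts of reads per gene, not normalized, from trimmed reads aligned to PN40024.v4. The submitters' processing notes name FastQC, HISAT2 and HTSeq, with no versions given in the sources used here. The table holds no column without a sample (0 unmapped columns). Tests used edgeR 4.0.16 (R 4.3.3) with its quasi-likelihood functions on 24 libraries and 9 group means, after filterByExpr (minimum count 10) and TMM scaling, and the common dispersion was 0.0483. Each SE was taken from the fold change (log2) and the square root of the F value. Adjusted p are by Benjamini-Hochberg over all genes tested. Replicates were separate pools from 1 vineyard, so p-values measure the spread between pools as labelled. That spread also comes from libraries unlike their group. Replicate 3 of node 2 at BBCH77, for example, had r = 0.15 with its own group and 0.88 with node 5 at BBCH77.

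Single genes are those that the paper names by identifier or lists in its groups A and B, the DEGs within its lists, and the 2 largest rises and falls among DEGs with at least 10 CPM in the higher group and no overlap. Members and lists were chosen with earlier results of these data known. Product names came from the paper, since the identifiers could not be matched to the annotation used here. Alternatives were DESeq2 1.42.0, its size factors in edgeR, no filter, all 27 or 25 libraries, labels moved by 1 column, only the libraries compared, a replicate block, an adjusted p limit of 0.01, and each library left out. Simulated data for node 10 vs node 2 at BBCH63 held 22999 genes, 200 of them changed 4-fold. edgeR recovered 87.5% of the 200 with 9 false calls, and DESeq2 93.5% with 22. The 200 were drawn only from genes above a minimum mean count at node 2. These shares therefore do not describe genes of few counts or changes under 4-fold.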

Additional observations from a re-analysis of the deposited data

Results flagged for a closer look

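The difference between node 10 and node 2 was not the same at all stages for some genes, by a test of the difference itself. In edgeR's interaction test 4 genes differed between BBCH77 and BBCH63, and 50 genes between BBCH90 and BBCH63. The 19 of the 50 that were higher DEGs at BBCH63 had a median log2 fold change of 1.80 there, 0.53 at BBCH77 and -0.17 at BBCH90. The 26 that were lower DEGs had medians of -3.20 at BBCH63, -1.56 at BBCH77 and 0.18 at BBCH90. Of the 10 largest rises, 3 were among these genes, and of the 10 largest falls none was. At BBCH90 these 10 falls had log2 fold changes of -1.13 to 1.82, beside -10.65 to -8.89 at BBCH63. Their interactions did not pass the test, which does not show that the difference was the same at both stages. The BBCH63 values that chose the genes enter this test, and no fixed limit for single outlying libraries was applied in groups of 2 or 3.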

How the results depend on the processing

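The counts of DEGs at BBCH63 moved most with the libraries used. Higher and lower DEGs were 230 and 242 in 25 libraries with node 10 replicate 3, and 1 and 3 in all 27 libraries. In the latter fit, replicate 3 of node 10 at BBCH77 and BBCH90, unlike their groups, also enter the dispersion. An adjusted p limit of 0.01 left 140 and 200. Leaving out each library in turn gave 67 to 327 higher and 40 to 591 lower. DESeq2 (456 and 1023), its size factors (375 and 687), no filter (352 and 645), only the 5 libraries (465 and 991) and the labels moved (543 and 1026) stayed within 1.5 times. In alternatives added after seeing the data, the moved labels gave 608 and 1166 with DESeq2, 583 and 1226 with only the 6 libraries, and 280 to 466 and 668 to 962 with each library left out. The interactions at BBCH77 and BBCH90 had 257 and 392 genes in DESeq2, 585 and 586 with the labels moved, and 0 and 0 with all 27 libraries in edgeR (1627 and 3370 at an unadjusted p under 0.05).

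The replicate number as a block (replicate block) gave 562 and 1077 DEGs, and 10 and 110 genes in the interactions. Same-numbered libraries of node 10 and node 2 had deviations from their group means correlated at -0.0457 and -0.0038. The deviations of the 2 node 10 libraries are exact opposites, so these values are not independent and cannot exclude a pairing. TIFY 10A reversed to 0.97 with node 10 replicate 3 added and with all 27 libraries. VvVFL was 0.63 in both of these fits. VvVFL was between -0.18 and 0.26 and IAA9 between -0.12 and 0.39 with each library left out. The causes were not tested. With 2 node 10 libraries, changes near 2-fold and levels near 3 counts are the least certain.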
